A study of Mus musculus with 5 samples.

Results

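The 10 genes described here are 3 secreted fibroblast growth factors (*Fgf8*, *Fgf9* and *Fgf10*), the intracellular FGF homologous factor *Fgf12*, 3 FGF receptors (*Fgfr1*, *Fgfr2* and *Fgfr3*), the receptor-like gene *Fgfrl1*, and the feedback inhibitors *Spry1* and *Spry2*. They were chosen by name, as part of the FGF pathway, out of 13489 genes with tags in at least 1 of 5 Tag-seq libraries. The libraries were made from mouse hearts at embryonic day 10.5 (Theiler stage 17). The atrio-ventricular canal (AVC), the outflow tract (OFT), the atria and the ventricles were dissected from wild-type C57BL/6 embryos, and a further AVC came from *Twist1* null embryos on an ICR background. Tissue of at least 3 litters was pooled per library and each group has 1 library, so a difference has no replicate check. The null and the wild-type AVC differ in strain as well as in genotype, and the effects of strain and genotype cannot be told apart.

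FGFs are secreted ligands that bind receptor tyrosine kinases on the cell surface together with heparan sulfate. The activated receptor signals through adaptor proteins to the Ras and MAP kinase cascade, and target genes of that cascade include Sprouty genes, which dampen it. In the embryonic heart FGFs are known for their part in the growth of the myocardium and in the addition of cells to the outflow tract from the second heart field.

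Tag-seq counts short cDNA tags. The enzyme NlaIII cuts cDNA at CATG, and the 17 bases that follow are read, so that a 21-base tag marks a place on a transcript, ideally the CATG nearest to its 3′ end. The tags below carry most of the counts on which the results rest, or the part of a count that changed a result. CATG is in capitals, and positions are in the mouse build GRCm38.

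The tag of *Fgf8* lies in coding sequence at chr19:45737096-45737116 on the minus strand, and the main tag of *Fgf9* lies in the 3′ UTR at chr14:58109895-58109915 on the plus strand. The second *Fgf9* sequence is in a further transcript, which was not among the RefSeq-linked transcripts that were counted.
Fgf8: CATGaagcgcctgccgcgggg
Fgf9: CATGctgggaaatagacacgc
Fgf9 further: CATGacactgaggagtcactc

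Both *Fgf10* tags lie in the 3′ UTR on the plus strand, the first at the 3′-most site (chr13:118791955-118791975) and the second 1289 bases from the transcript end (chr13:118790827-118790847). Both *Fgf12* tags lie in the 3′ UTR on the minus strand. The first, at chr16:28162179-28162199, is the 12th site from the transcript end, and the second, at chr16:28160154-28160174, is at the end.
Fgf10 end: CATGctgaagtgtgttagcca
Fgf10 upstream: CATGcaccctcgctctgtaga
Fgf12 upstream: CATGcataacaattattgcac
Fgf12 end: CATGatagcaatttatcttca

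The receptor tags lie in the 3′ UTR, apart from 1 *Fgfr2* tag that spans an exon junction in the coding sequence. They are at chr8:25574593-25574613 for *Fgfr1* (plus strand), chr7:130162580-130162600 and, 7 bases upstream, chr7:130162587-130162607 for *Fgfr2* (minus strand), and chr5:33736979-33736999 for *Fgfr3* (plus strand). The junction tag runs between chr7:130241274-130242394. Each *Fgfr2* tag shown was found in 1 of the 2 *Fgfr2* transcripts, and the junction tag is not in the same transcript as the other tags shown. The *Fgfr3* neighbour is a listed tag with the substitution G9A, counted from 1 at the C of CATG, and it matched the antisense strand of *Nvl*.
Fgfr1: CATGggggagacgcccagggt
Fgfr2 end: CATGtatgcagattacactga
Fgfr2 upstream: CATGcgacatgtatgcagatt
Fgfr2 junction: CATGgtgaatgtcacagatgc
Fgfr3: CATGgtttgtcagcccacact
Fgfr3 neighbour: CATGgtttatcagcccacact

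The main tags of *Fgfrl1* (chr5:108706854-108706874, plus strand), *Spry1* (chr3:37644483-37644503, plus strand) and *Spry2* (chr14:105892298-105892318, minus strand) lie in the 3′ UTR at the last CATG of their transcripts.
Fgfrl1: CATGgctgcctggtctctgta
Spry1: CATGtctgaatataacatatc
Spry2: CATGgcacagtcacaaaatat

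In all, 30 tag types (distinct tag sequences) belonged to 1 of the 10 genes alone. Of these 24 lay in a 3′ UTR and 6 in coding sequence, 20 were absent from both chamber libraries, 8 were in the null library only, and 6 were in all 5 libraries. The share of the genes' tags from sites other than the 3′-most ranged from 6.84% in the OFT to 24.2% in the atria, against 30.9% and 19.7% over all genes in the same libraries.

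Levels are tags per 1000000 tags of the library (TPM). The libraries held 6075421 tags (AVC), 5267618 (OFT), 4666514 (atria), 4223810 (ventricles) and 12977237 (null). Tag types with 5 or fewer tags are not listed, so a gene listed at 0 may have had up to 5 tags of any tag type, or 0.823, 0.949, 1.07, 1.18 and 0.385 TPM in these libraries in the same order. Intervals are exact 95% Clopper-Pearson intervals and, as the tags come from PCR without molecular identifiers, cover counting error only. Of the 10 genes 9 were listed in the AVC, 8 (OFT), 6 (atria), 8 (ventricles) and 10 (null).

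*Twist1*, the gene deleted in the null, stood at 918 TPM (AVC), 299 (OFT), 63.4 (atria), 55.9 (ventricles) and 4.55 (null). *Isl1*, which marks the second heart field, stood at 72.9 TPM (OFT) and at no more than 3.08 elsewhere. Other markers of that field differed from it, with *Hand2* at 422 TPM (AVC), 665 (OFT) and 230 (null). *Osr1* went the other way, with 1.48 TPM (AVC) and 5.01 (null) and none listed elsewhere. *Myl2*, a ventricular myosin light chain, reached 6196 TPM (ventricles) against 55.5 (atria). *Tnnt2*, which encodes cardiac troponin T, stood at 198 TPM (atria) and 453 (ventricles) against 2493 to 5906 in the other libraries. *Actc1*, cardiac actin, went another way, with 6283 TPM (AVC), 6370 (OFT), 5782 (atria), 13856 (ventricles) and 8933 (null), and all 10 cardiomyocyte markers summed to 24894, 26932, 8557, 23344 and 21112 TPM in the same order. Cushion mesenchyme markers (8 genes) summed to 1175 TPM (AVC), 964 (OFT), 80.6 (atria), 73.6 (ventricles) and 485 (null). Erythroid markers (7 genes) summed to 2426, 3083, 215379, 46723 and 27354 TPM in the same order. Tags that began with T after CATG made up 13.6% (AVC), 15.0% (OFT), 32.1% (atria), 22.2% (ventricles) and 32.4% (null) of the tags. Of 8 pharyngeal epithelium markers, genes of the tissue next to the outflow tract, *Cdh1*, *Foxa2*, *Shh*, *Pax1*, *Pax9* and *Foxe1* were listed at 0 throughout, and *Epcam* was listed in the atria alone at 1.29 TPM. *Krt8* went another way and was highest in the OFT, with 70.1 TPM (AVC), 212 (OFT), 16.9 (atria), 22.5 (ventricles) and 40.5 (null). It was called higher in the OFT than in the AVC (log2 ratio 1.60). In tissue libraries such as these, fewer cells of a type and less RNA per cell cannot be told apart. The part of these cell types in the results below was not tested. Tags with T were left out in alternative settings given further below, which removes both *Spry1* tag types and the end tag of *Fgfr2*. What makes the share of tags with T differ was not tested.

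**Figure D1:**
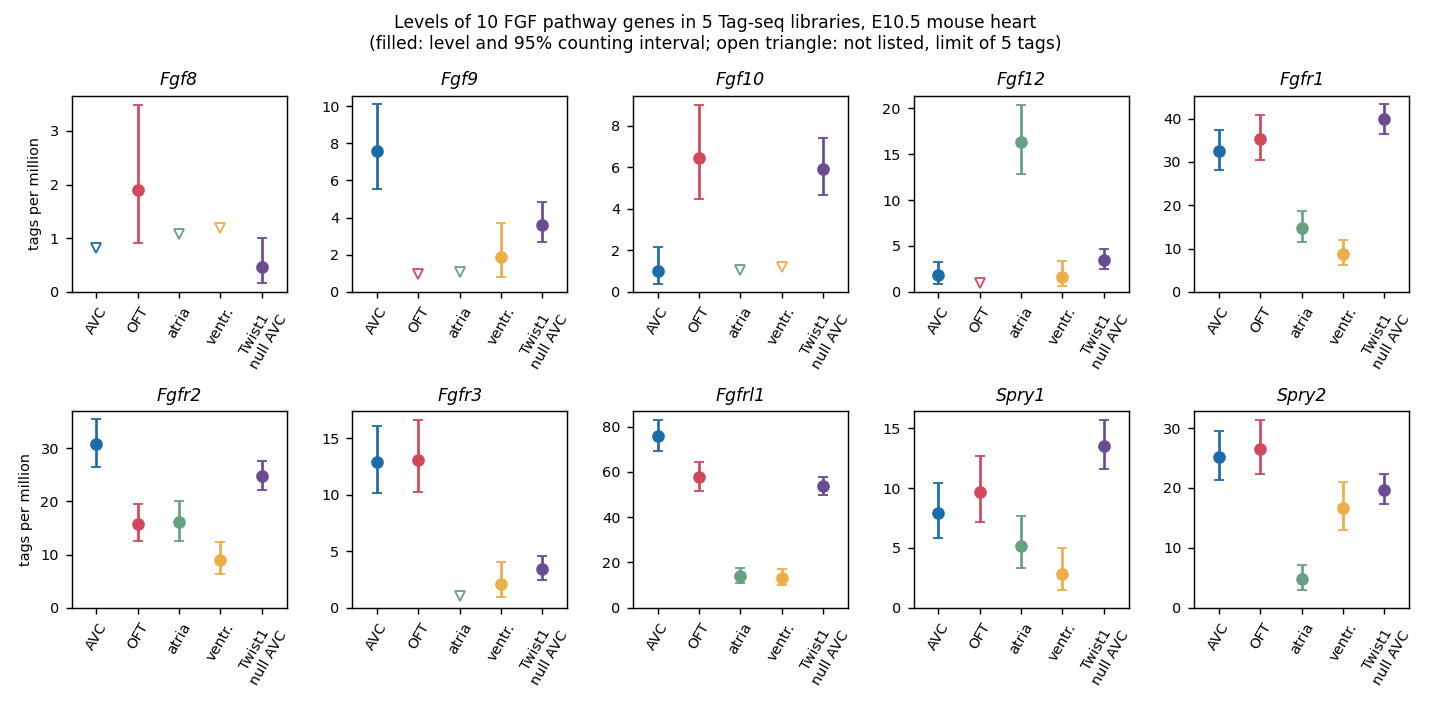
Levels of the 10 genes in TPM (vertical axis, a separate scale from 0 for each gene) in the 5 libraries (horizontal axis). Filled points are levels with 95% counting intervals, and open triangles mark libraries in which a gene is not listed, drawn at the limit of 5 tags. *Fgf9* was listed at 7.57 in the AVC and not in the OFT, *Fgf10* at 0.988 and 6.45, and *Fgf12* reached 16.3 in the atria.

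Differences were tested with the exact test of edgeR at a dispersion of 0.12, with the AVC and the OFT each set against the sum of atria and ventricles (the chambers). A gene is called at an unadjusted, two-sided exact p under 0.05, and the test compares libraries, not conditions. Where a gene is not listed in one arm, the fold is given as a bound computed with 5 tags per library for each of its missing tag types. A tag type counts as missing where another library of the same comparison lists it. Tag types listed in neither arm and counting error are left out, so "at least" below holds for the observed counts of the listed tag types only.

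The secreted ligands were low and each had its own distribution. *Fgf8*, an early ligand of the outflow tract and pharynx, had 10 tags in the OFT, 6 in the null, and none listed in the AVC, atria or ventricles. Its level was 1.90 TPM in the OFT (0.910 to 3.49) and 0.462 in the null (0.170 to 1.01). The OFT thus held the highest level, on few tags, and the null level lies below the limit of each other library. The OFT was called higher than the chambers (exact p = 0.00545, at least 1.69-fold higher) and than the AVC (exact p = 0.00780, at least 2.31-fold higher). With 5 tags put in for the missing tag type the exact p rose to 0.566 and 0.374.

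*Fgf9*, a ligand known to be made by the endocardium and epicardium, had 46 tags (AVC), 8 (ventricles), 47 (null) and none listed in the OFT or atria. These are 7.57 TPM in the AVC (5.54 to 10.1), 1.89 in the ventricles (0.818 to 3.73) and 3.62 in the null (2.66 to 4.82). The AVC stood above both chamber libraries and the OFT. It was 8.41-fold above the chambers (log2 ratio 3.07, exact p = 0.000948) and at least 7.98-fold above the OFT (exact p = 5.25e-06). When the tags of this further transcript and of all other reference transcripts were counted too, the levels became 13.0 TPM (AVC), 1.29 (atria), 9.47 (ventricles) and 11.5 (null). *Fgf9* was still not listed in the OFT, but the difference between AVC and chambers was no longer called (log2 ratio 1.33, exact p = 0.0958).

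*Fgf10*, a ligand that marks second heart field progenitors, had 6 tags (AVC), 34 (OFT), 77 (null) and none listed in the atria or ventricles. The levels were 0.988 TPM in the AVC (0.362 to 2.15), 6.45 in the OFT (4.47 to 9.02) and 5.93 in the null (4.68 to 7.42). The OFT and null intervals overlap each other and neither reaches the AVC interval. The OFT was at least 5.74-fold above the chambers (exact p = 5.25e-06) and 6.54-fold above the AVC (log2 ratio 2.71, exact p = 0.00504). The AVC itself was called above the chambers on its 6 tags alone (exact p = 0.0391), a count that 5 unlisted tags per chamber library could equal, so no fold is given.

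*Fgf12*, which encodes an intracellular relative of the FGFs that binds voltage-gated sodium channels and does not activate FGF receptors, was highest in the atria. It had 11 tags (AVC), 76 (atria), 7 (ventricles), 45 (null) and none listed in the OFT. In TPM it stood at 1.81 in the AVC (0.904 to 3.24), 16.3 in the atria (12.8 to 20.4), 1.66 in the ventricles (0.666 to 3.41) and 3.47 in the null (2.53 to 4.64). The atria lay above each of the other libraries with no overlap of intervals, and the AVC, ventricles and null overlap in part. The ventricles were 9.83-fold below the atria (log2 ratio -3.30, exact p = 0.000349). The upstream tag gave 67 of the 76 atrial tags and all tags of the other libraries, and the end tag was listed in the atria alone with 9 tags.

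*Fgfr1* encodes a receptor tyrosine kinase that is broadly expressed in mesoderm. It had 198 tags (AVC), 186 (OFT), 69 (atria), 37 (ventricles) and 517 (null), or 32.6, 35.3, 14.8, 8.76 and 39.8 TPM. Both valve-forming regions and the null stood above both chamber libraries with no overlap of intervals, and the AVC, OFT and null intervals overlap. The OFT was 2.96-fold above the chambers (log2 ratio 1.57, exact p = 0.0388), a call that held in 7 of 20 alternative settings, and the AVC was not called (log2 ratio 1.45, exact p = 0.0546).

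*Fgfr2*, a receptor best known from epithelia and also made in mesenchyme, had 187 tags (AVC), 83 (OFT), 75 (atria), 38 (ventricles) and 322 (null). The levels were 30.8, 15.8, 16.1, 9.00 and 24.8 TPM. The AVC and null were highest and the OFT stood level with the atria. No comparison called *Fgfr2*, the AVC being 2.42-fold above the chambers (log2 ratio 1.28, exact p = 0.0900) and 1.95-fold above the OFT (log2 ratio of OFT to AVC -0.97, exact p = 0.201). Its log2 ratio of OFT to chambers was 0.31 (exact p = 0.691) and turned to -0.55 under TMM normalization (exact p = 0.477). The tag 7 bases upstream of the end tag had 75 tags in the null and was listed in no other library. The junction tag was listed in all 5 libraries, with 28, 18, 13, 15 and 58 tags.

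*Fgfr3*, a receptor known above all from cartilage, had 78 tags (AVC), 69 (OFT), 9 (ventricles), 44 (null) and none listed in the atria. These are 12.8 TPM in the AVC (10.1 to 16.0), 13.1 in the OFT (10.2 to 16.6), 2.13 in the ventricles (0.974 to 4.04) and 3.39 in the null (2.46 to 4.55). The AVC and OFT intervals overlap, and both lie above those of the ventricles and the null. The AVC was 12.7-fold above the chambers (log2 ratio 3.66, exact p = 6.48e-05) and the OFT 12.9-fold (log2 ratio 3.69, exact p = 4.86e-05).

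The neighbour of the *Fgfr3* tag, which was not counted, had 36 tags (AVC), 38 (OFT), 7 (atria), 10 (ventricles) and 107 (null). It was thus less frequent than the *Fgfr3* tag in the AVC and OFT. It was more frequent in the atria (7 against 0), the ventricles (10 against 9) and the null (107 against 44). With the neighbour counted for *Fgfr3*, the AVC and OFT remained called above the chambers (log2 ratios 2.68 and 2.80, exact p = 0.00114 and 0.000656).

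*Fgfrl1* encodes a receptor-like protein that binds FGFs and lacks the kinase domain. It had 461 tags (AVC), 304 (OFT), 65 (atria), 55 (ventricles) and 697 (null), or 75.9, 57.7, 13.9, 13.0 and 53.7 TPM. The AVC was highest (69.1 to 83.1), the OFT and null came next with overlapping intervals, and the atria and ventricles were lowest and overlapped each other. The AVC was 5.62-fold above the chambers (log2 ratio 2.49, counting interval 2.20 to 2.79, exact p = 0.00127) and the OFT 4.28-fold (log2 ratio 2.10, 1.79 to 2.41, exact p = 0.00615).

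The Sprouty genes encode intracellular inhibitors of receptor tyrosine kinase signalling. *Spry1* had 48 tags (AVC), 51 (OFT), 24 (atria), 12 (ventricles) and 176 (null), or 7.90, 9.68, 5.14, 2.84 and 13.6 TPM. *Spry2* had 153, 140, 22, 70 and 256 tags, or 25.2, 26.6, 4.71, 16.6 and 19.7 TPM. The lowest library was the ventricles for *Spry1*, with an interval that overlaps that of the atria, and the atria for *Spry2*, with no overlap. *Spry2* was 3.52-fold higher in the ventricles than in the atria (log2 ratio 1.81, exact p = 0.0308). Neither gene was called between a valve-forming region and the chambers, with log2 ratios of 0.96 to 1.36 and exact p = 0.0730 to 0.248.

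The comparison of the AVC with the chambers asks which genes mark the valve-forming region. *Fgf9*, *Fgf10*, *Fgfr3* and *Fgfrl1* were called higher in the AVC and *Fgf12* was called lower, which is 5 of the 9 genes with tags in either arm. Over all 12506 genes tested 51.5% were called, 43.4% higher and 8.12% lower, so the count for the FGF genes is near the background. The median log2 ratio of all genes was 0.99, and relative to it *Fgfr3* stood at 2.68, *Fgf9* at 2.08 and *Fgfrl1* at 1.502, while *Fgfr1*, *Fgfr2*, *Spry1* and *Spry2* lay between -0.02 and 0.46. TMM normalization, which moved all ratios by -0.95, kept 4 of the 5 calls, *Fgf10* being lost (exact p = 0.101), and called 43.2% of all genes, 25.7% higher and 17.5% lower. The lower level of *Fgf12* rests on the atria: without that library the log2 ratio was 0.13 (exact p = 1). Without the atria *Fgfr1* (log2 ratio 1.90, exact p = 0.0168) and *Fgfr2* (1.77, exact p = 0.0243) were called higher, without the ventricles *Spry2* was (2.42, exact p = 0.00307), and *Fgf10* was not called without either library (exact p = 0.101).

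The same question for the OFT gave 6 of 10 genes, with *Fgf8*, *Fgf10*, *Fgfr1*, *Fgfr3* and *Fgfrl1* higher and *Fgf12* lower (exact p = 3.17e-07, at least 4.92-fold lower). Of 12453 genes 49.5% were called, 40.6% higher and 8.88% lower, around a median log2 ratio of 0.88, so this count too is near the background. Of the 83 chamber tags of *Fgf12* 76 were atrial and 7 ventricular, so its fold bound rests mostly on the atria. *Fgf9*, with 8 chamber tags, all from the ventricles, and none in the OFT, was not called (exact p = 0.0619). With all reference transcripts counted, *Fgf9* had 6 atrial and 40 ventricular tags against 0 in the OFT and was called lower. Under TMM normalization, which moved the ratios by -0.86, *Fgfr1* (exact p = 0.345) and *Fgfrl1* (exact p = 0.0962) were no longer called and *Fgf9* was called lower (exact p = 0.0254), while 43.8% of all genes were called, 26.2% higher and 17.7% lower. Without the ventricles *Fgfr1* had a log2 ratio of 1.26 (exact p = 0.0983) and *Spry2* was called (2.50, exact p = 0.00273), and without the atria *Fgf9* was called lower (exact p = 0.0168). This comparison and that of the AVC share the chamber libraries and are not independent. In both, the chamber arm had more tags beginning with T (32.1% and 22.2% against 13.6% and 15.0%), and the 8 cushion mesenchyme markers were called higher and the 7 erythroid markers lower.

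**Figure D2:**
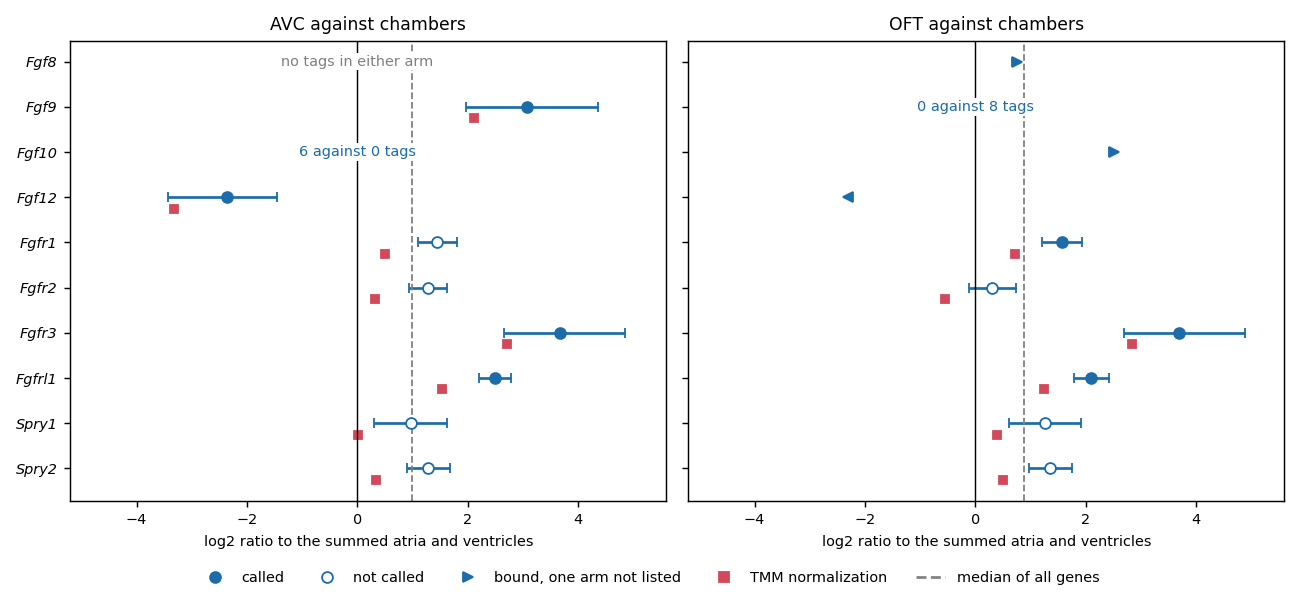
Log2 ratios of the 10 genes in the AVC (left) and the OFT (right) to the summed atria and ventricles. Circles with 95% counting intervals are filled where called, triangles are bounds where 1 arm has no listed tag, squares are ratios under TMM normalization, and the dashed line is the median of all genes (0.99 and 0.88). *Fgfr3* and *Fgfrl1* lie to the right of that line in both panels and *Fgf12* to the left.

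The genes called between the OFT and the AVC were the 3 secreted ligands and *Fgf12*. *Fgf8* and *Fgf10* were called higher in the OFT, and *Fgf9* and *Fgf12* lower (*Fgf12* by at least 1.91-fold, exact p = 0.0113), which is 4 of 10 genes against 12.6% of all 12544 genes tested (5.22% higher and 7.36% lower). TMM normalization kept these 4 calls and called 6.39% of all genes higher and 6.24% lower. None of the 3 receptors, *Fgfrl1* or the Sprouty genes was called, with log2 ratios of OFT to AVC from -0.97 for *Fgfr2* to 0.29 for *Spry1*. The counting interval of the difference was -0.46 to 0.51 for *Fgfr3*, -0.18 to 0.41 for *Fgfr1* and -0.26 to 0.42 for *Spry2*, on the log2 scale. After Benjamini-Hochberg adjustment over all genes in the edgeR exact test *Fgf9* alone remained called (adjusted p = 0.00157), with 0.103 for *Fgf10*, 0.127 for *Fgf8* and 0.162 for *Fgf12*.

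Between the chambers, *Fgf12* was called lower in the ventricles than in the atria, and *Fgf9* (8 tags against 0, exact p = 0.0254), *Fgfr3* (9 against 0, exact p = 0.0168) and *Spry2* were called higher. These are 4 of 8 genes, where 20.1% of 10707 genes were called, 11.1% higher and 9.04% lower. After adjustment *Fgf12* alone remained (edgeR exact test, adjusted p = 0.0151). With 5 tags for a missing tag type the calls of *Fgf9* (exact p = 0.683) and *Fgfr3* (exact p = 0.56) were lost. *Spry2* was not called under TMM normalization (exact p = 0.0666), which called 19.2% of all genes (9.16% higher), nor was *Fgfr3* when its neighbour tag was counted (exact p = 0.146). Haemoglobin genes made up 21.5% of atrial and 4.67% of ventricular tags, and without them in the totals *Spry2* had a log2 ratio of 1.53 (exact p = 0.0627).

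The null AVC was compared with the wild-type AVC to find what changes with the loss of *Twist1*. *Fgf10* was 6.01-fold higher in the null (log2 ratio 2.59, counting interval 1.40 to 4.08, exact p = 0.00793) and *Fgfr3* was 3.79-fold lower (log2 ratio -1.92, -2.49 to -1.37, exact p = 0.0150). These are 2 of 10 genes, a count near the background of 24.6% of 12966 genes called (11.9% higher and 12.7% lower), and neither passed adjustment (edgeR exact test, adjusted p = 0.0678 and 0.105). TMM normalization moved the ratios by 0.24 and called 14.9% of all genes higher and 9.37% lower, with the same 2 FGF genes. The other 8 genes were not called, with log2 ratios from -1.06 for *Fgf9* (exact p = 0.189) to 0.94 for *Fgf12* (exact p = 0.341), and *Fgf8* had 6 tags against 0 (exact p = 0.169). *Fgfr1* differed by a log2 ratio of 0.29 with a counting interval of 0.05 to 0.53, and *Fgfrl1* by -0.50 (-0.67 to -0.33).

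Both calls turn on which tags are counted. Of the 77 *Fgf10* tags in the null, 36 were of the end tag, 27 of the upstream tag shown above, and 7 each of 2 further upstream tags, and in the wild-type AVC all 6 were of the end tag. With the 3′-most sites alone *Fgf10* had a log2 ratio of 1.49 (exact p = 0.132), and with every library thinned to the ventricular depth 1.5025 (exact p = 0.170). *Fgfr3* kept its ratio of -1.92 with the 3′-most sites alone, and with the neighbour tag counted it was -0.69 (exact p = 0.362). The null library was the deepest and, like the chamber libraries, had more tags beginning with T (32.4%) than the wild-type AVC (13.6%), and 4 of 8 cushion mesenchyme markers were called lower in it and 4 of 7 erythroid markers higher.

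**Figure D3:**
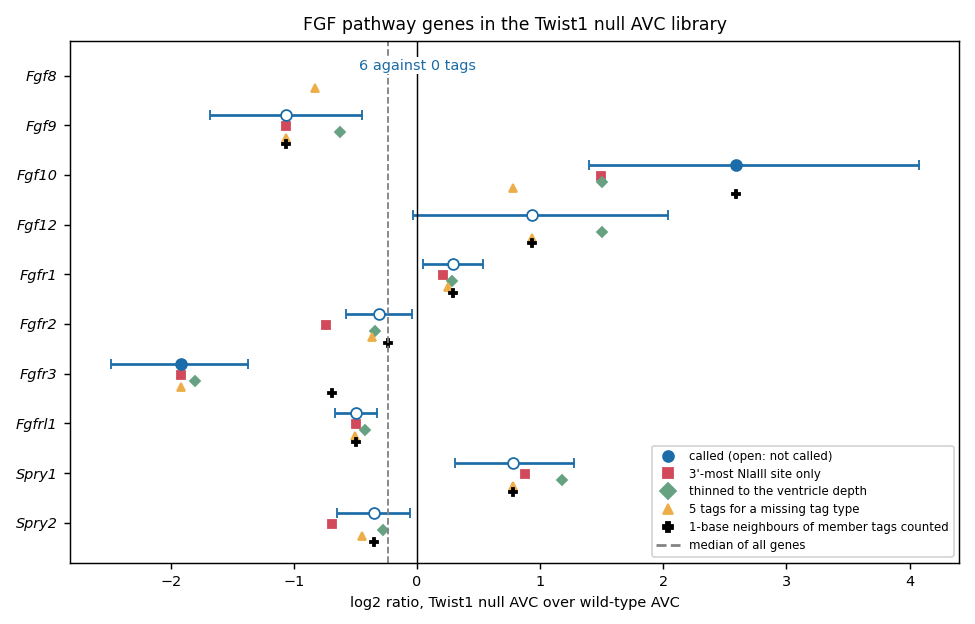
Log2 ratios of the 10 genes in the *Twist1* null AVC over the wild-type AVC, with 95% counting intervals on the main values (circles, filled where called) and 4 alternative countings as smaller symbols. *Fgf10* moves from 2.59 to 1.49 with the 3′-most sites alone and *Fgfr3* from -1.92 to -0.69 with its 1-base neighbour counted. The dashed line is the median of all genes (-0.23).

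Other genes of the pathway were taken from 6 lists with 68 genes. Their counts against the chambers stand beside the share of all genes called higher, which was 43.4% (AVC) and 40.6% (OFT), or 25.7% and 26.2% under TMM normalization, and those in the null beside the 24.6% of all genes called in either direction. Of 15 other secreted ligands 11 were listed in no library, among them *Fgf3*, *Fgf4*, *Fgf15* and *Fgf16*. Of the 4 that were listed, *Fgf1*, *Fgf2* and *Fgf7* were called higher in the AVC than in the chambers and *Fgf5* lower, beside 51.5% of all genes. With 5 tags for a missing tag type the calls of *Fgf1* (exact p = 0.566), *Fgf7* (0.872) and *Fgf5* (0.348) were lost and that of *Fgf2* was kept (exact p = 0.00279). *Fgf2*, a ligand stored on heparan sulfate, stood at 7.57 TPM (AVC), 14.0 (OFT) and 0.539 (null) and was not listed in the chambers. Of the listed secreted ligands it had the smallest exact p between null and wild type (log2 ratio -3.81, exact p = 7.35e-05, adjusted p = 0.00484 with the edgeR exact test). *Fgf1* stood at 12.1 TPM in the OFT against 1.81 in the AVC and was not listed in the chambers or the null. It was called higher in the OFT than in the AVC (log2 ratio 2.75, exact p = 0.00195, adjusted p = 0.0577 with the edgeR exact test) and lower in the null (exact p = 0.00202, or 0.0600 with 5 tags for a missing tag type). *Fgf7*, a mesenchymal ligand of *Fgfr2*, had 8 tags in the AVC and 60 in the null (log2 ratio 1.81, exact p = 0.0444, adjusted p = 0.188 with the edgeR exact test) and none listed elsewhere. *Fgf5* had 6, 9 and 20 tags in the atria, ventricles and null and none listed in the AVC or OFT. It was called higher in the null than in the wild-type AVC (exact p = 0.00278, adjusted p = 0.0352 with the edgeR exact test). With 5 tags for a missing tag type its log2 ratio was -0.095 and the call was lost. Thus all 4 listed ligands were called in the null, 2 higher and 2 lower, beside 24.6% of all genes.

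*Fgf13*, which like *Fgf12* encodes an intracellular sodium channel partner, had the opposite order in the chambers, with 16.6 TPM in the ventricles against 4.07 in the atria (log2 ratio 2.03, exact p = 0.0167). It was called lower in the AVC (1.32 TPM, log2 ratio -2.93, exact p = 0.00131) and in the OFT (2.66 TPM, log2 ratio -1.91, exact p = 0.0269) than in the chambers. Of the 89 chamber tags 70 were ventricular and 19 atrial, so most of the chamber level came from the ventricles. *Fgf11*, of the same group, stood at 19.4 TPM in the AVC and was called higher than in the chambers (log2 ratio 1.91, exact p = 0.0163), a call that TMM normalization removed, and *Fgf14* was listed nowhere.

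Among 8 other receptors, co-receptors and binding proteins, 3 of 4 tested genes were called higher in the AVC than in the chambers and 2 of 3 in the OFT (2 and 1 under TMM normalization), beside 43.4% and 40.6% of all genes (25.7% and 26.2%). *Fgfr4* was listed in the AVC (2.14 TPM) and the null (0.848) alone. *Fgfbp3*, which encodes a carrier that releases FGFs from the matrix, had 18 tags (AVC), 9 (OFT) and 135 (null), none being listed in the chambers, and was called higher in the null (log2 ratio 1.81, exact p = 0.0280, adjusted p = 0.141 with the edgeR exact test). *Flrt3*, which encodes a membrane protein that binds FGF receptors, stood at 32.8 TPM (AVC), 41.6 (OFT), 11.8 (atria), 10.2 (ventricles) and 57.2 (null). *Flrt2* of the same family was called in no comparison.

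Of the other feedback inhibitors and targets, 6 of 11 tested genes were called higher in the AVC than in the chambers and 4 of 10 in the OFT, with none lower, beside 43.4% and 40.6% of all genes called higher. Under TMM normalization the AVC had 4 of them higher and 1 lower, and the OFT 3 higher. *Spry4* stood at 5.76 TPM (AVC), 4.56 (OFT) and 9.86 (null), and *Spred2* at 3.46, 2.66 and 4.16. Neither was listed in the chambers. The ETS factor gene *Etv1*, a target of the pathway, stood at 43.0 TPM (AVC), 32.1 (OFT), 10.1 (atria), 6.16 (ventricles) and 27.8 (null), and *Etv4* at 1.32, 2.09, 0, 0 and 1.46. The genes of this list seen in both arms had a median log2 ratio of 0.31 (AVC) and 0.44 (OFT), against 0.99 and 0.88 over all genes. In the null 1 of 11 was called, and it was higher.

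Of 16 tested genes of the signalling cascade, 6 were called higher and 1 lower in the AVC, and likewise in the OFT, which does not exceed the 43.4% and 40.6% of all genes called higher. Their median log2 ratios were 1.26 and 1.34, against 0.99 and 0.88 over all genes. Under TMM normalization 4 were higher and 2 lower in each. The docking protein gene *Gab1* had the smallest exact p, with 100.1 TPM (AVC), 154 (OFT), 4.93 (atria) and 2.37 TPM in the ventricles (log2 ratios 4.75 and 5.38, exact p = 4.19e-08 and 1.50e-09). The phosphatase gene *Ptpn11* stood at 254 TPM (AVC), 185 (OFT), 27.0 (atria) and 24.6 (ventricles), and the receptor adaptor gene *Frs3* at 23.4, 35.1, 2.14 and 3.79. The kinase gene *Braf* stood at 18.1, 21.5, 1.93 and 4.02 TPM in the same order. None of these 16 genes was called between null and wild-type AVC, where 24.6% of all genes were.

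Of 13 genes for enzymes that build and trim heparan sulfate, the co-factor of FGF binding, the AVC had 6 called higher than in the chambers and the OFT 4, beside 43.4% and 40.6% of all genes. Their median log2 ratios were 1.43 and 1.04, against 0.99 and 0.88 over all genes. Under TMM normalization 3 were higher in each and 2 lower in the OFT. *Ndst1*, an N-deacetylase and N-sulfotransferase gene, stood at 34.6 TPM (AVC), 28.1 (OFT), 0 (atria), 1.42 (ventricles) and 8.78 (null). The chain-building genes *Extl3* (80.7, 47.6, 3.43, 4.26 and 68.7 TPM) and *Ext1* (47.7, 39.3, 4.29, 3.55 and 23.9 TPM) were likewise called higher in the AVC and OFT than in the chambers. In the null 2 of 13 genes were called, beside 24.6% of all genes, both lower: *Ndst1* (log2 ratio -1.98, exact p = 0.00954) and *Ndst2* (31.3 against 8.25 TPM, log2 ratio -1.92, exact p = 0.0123). Neither passed adjustment with the edgeR exact test (adjusted p = 0.0776 and 0.0906).

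**Figure D4:**
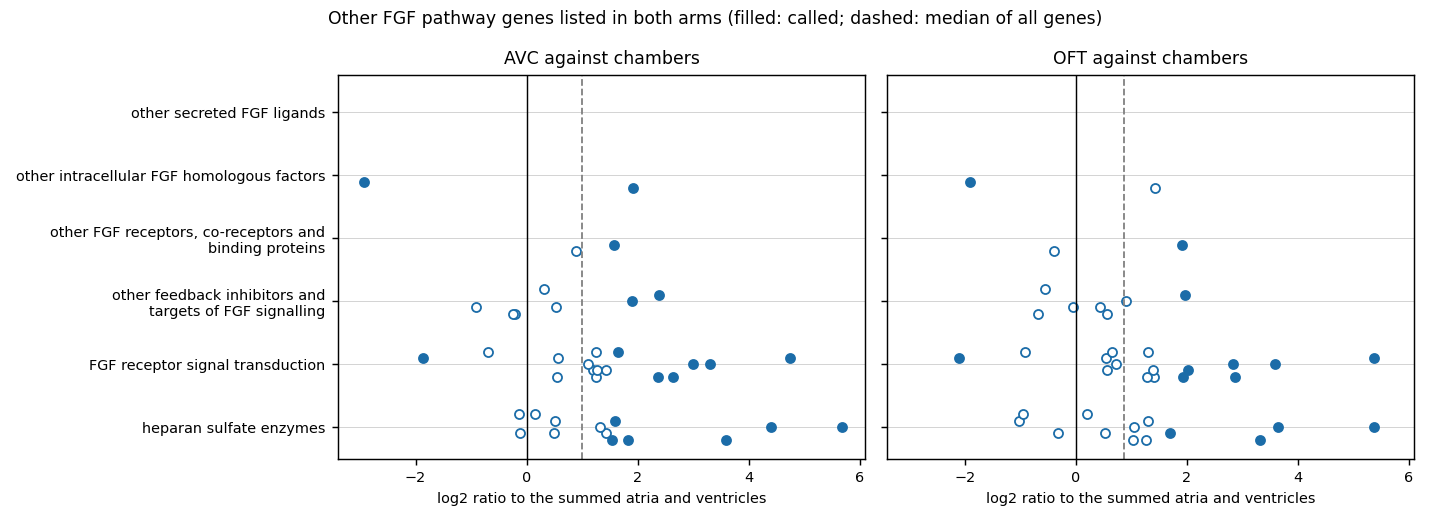
Log2 ratios of other FGF pathway genes in the AVC (left) and the OFT (right) to the summed chambers, by list, for genes with tags in both arms. Filled points were called and the dashed line is the median of all genes. The *Gab1* and *Ndst1* points lie at 4.75 and 5.68 in the AVC, and no other secreted ligand had tags in both arms.

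For the 5 genes listed in all libraries, the nearest patterns among 9089 genes were found by the Euclidean distance of log2(TPM + 1) over the 5 libraries, centred on each gene's mean. They were *Chmp1a*, *Lsp1* and *Lpin1* for *Fgfr1*, at distances of 0.180 to 0.182, and *Itga9*, *Brpf1* and *Tcf19* for *Fgfr2* (0.237 to 0.244). *Tmem59* (0.168) and *Clip1* (0.216) were among the nearest to *Fgfrl1*, and *Atmin* (0.255) and *Tceal5* (0.292) among the nearest to *Spry1*. Nearest to *Spry2* were *Zdhhc1*, *Snx21* and *Snap91* (0.270 to 0.336). None of the genes named here is in the FGF lists, and the 5 points of each pattern share library depth and composition.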

How the data were processed

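The deposited files give raw counts of tag types, which the authors made after a Chastity filter from 21 bases at the start of each read. The files hold the 17 bases after CATG, and their smallest count is 6. The labels name the build mm9, and the coordinates printed here come from GENCODE M21 on GRCm38. Virtual tags were taken at every NlaIII site of 33363 RefSeq-linked transcripts, with 20 adenines added. A tag in sense to 1 gene alone was counted for it, which took 70.7 to 74.6% of the tags of a library. Other tags stayed in the totals of 4223810 to 12977237 tags, which were the library sizes. Uniqueness in the genome was not checked, and 2 tags that *Fgfr3* shares with other genes in the poly(A) tail were not counted.

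The exact test of edgeR 4.0.16 (R 4.3.3) was run on all genes with the study's dispersion of 0.12, and atria and ventricles were summed. It was tested on simulated data. Comparisons of OFT with AVC and of ventricles with atria, and Benjamini-Hochberg adjustment, were added to the study's tests. The main setting used the library totals without further normalization. It put *Twist1* 15.3-fold higher in the AVC than in the chambers (log2 ratio 3.94). The study printed a smaller fold, nearer to the log2 ratio of 2.99 under TMM normalization. Calls of the main setting can therefore differ from those of the study. A further 17 settings were run, and 3 more that were chosen after seeing these values, among them TMM normalization, DESeq2 1.42.0 size factors, dispersions of 0.05 and 0.4, and other choices of tags. Python 3.11.15 with pandas 2.3.3 and scipy 1.17.1 did the rest.

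The 10 genes, the pathway lists and the marker lists were chosen with earlier results of these data known. Named are all 10 genes, up to 4 genes per pathway list with the smallest exact p in any comparison, *Twist1*, up to 3 markers per list with the highest level, and the 3 genes nearest in pattern to each gene listed in all libraries, with a mean of at least 5 TPM, of which some are not reported here. *Fgf3*, *Fgf4*, *Fgf14*, *Fgf15* and *Fgf16*, and the markers of the pharyngeal epithelium, were named after their values were seen.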

Additional observations from a re-analysis of the deposited data

Results flagged for a closer look

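*Fgf8*, *Fgf9*, *Fgf10* and *Fgf12* differed between the OFT and the AVC libraries by the exact test of edgeR, the other 6 genes not being called. The exact p was 0.00780 for *Fgf8* (10 tags in the OFT against 0), 5.25e-06 for *Fgf9* (0 against 46), 0.00504 for *Fgf10* (34 against 6) and 0.0113 for *Fgf12* (0 against 11). The first and the last of these differences were not called once 5 tags stood in for a missing tag type (exact p = 0.374 and 0.458).

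Tags that match the antisense strand of a member and the sense strand of no gene were left out of every comparison. In the library with the most of them they came to 114 for *Fgfr2* and 14 for *Fgfrl1*, both in the AVC, to 83 for *Spry1*, 62 for *Spry2*, 52 for *Fgfr1* and 21 for *Fgf10*, all in the null, and to 13 for *Fgfr3* in the AVC. The antisense tags of *Fgfr2* were 114 (AVC), 34 (OFT) and 81 (null), with none listed in the chambers, beside 187, 83 and 322 sense tags. Those of *Spry1* were 6 (AVC), 6 (OFT), 10 (atria) and 83 (null).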

How the results depend on the processing

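Each comparison rests on 1 library per arm or on the sum of 2. No paired analysis was possible because no group has more than 1 library, and no replicate could be left out. Of the values of the 10 genes under the alternatives, 723 kept their direction and their side of the threshold, 60 lost a call, 21 gained one and 19 turned in direction. TMM normalization moved the share of all calls that were higher from 84.2% to 59.4% in the AVC against the chambers, from 82.1% to 59.7% in the OFT against the chambers and from 48.3% to 61.3% in the null AVC. The number of the 10 genes called moved as follows. In the AVC against the chambers it went from 5 to 8 at a dispersion of 0.05, to 2 at 0.4, to 3 with tags starting with T left out under TMM normalization and to 8 with atria and ventricles as separate libraries. In the null against the wild-type AVC it went from 2 to 0 at 0.4 and after adjustment, and to 1 with the 3′-most sites alone, thinned libraries, 5 tags for a missing tag type, neighbours of member tags counted, or tags starting with T left out under TMM normalization. In the OFT against the AVC it went from 4 to 2 at 0.4, with thinned libraries and with 5 tags for a missing tag type, to 1 after adjustment and to 0 with at least 50 tags per gene, since that filter leaves out the low ligands. In the ventricles against the atria it went from 4 to 1 at 0.4 and after adjustment, and to 2 with more than 10 tags per tag type, at least 50 tags per gene, or 5 tags for a missing tag type.

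Turned directions, as log2 ratios, were as follows. With 5 tags for a missing tag type, *Fgf10* stood at -0.19 in the AVC against the chambers, *Fgf8* at -0.83 and *Fgf5* at -0.095 in the null, and *Fgfr3* at -0.061 in the OFT against the AVC. *Fgf12* stood at 0.13 in the AVC without the atria. *Spry1* stood at -0.025 in the AVC with DESeq2 size factors. *Fgfr2* in the OFT against the chambers stood at -0.55 under TMM normalization, -0.57 with DESeq2 size factors, -0.029 without the ventricles and -0.85 with tags starting with T left out under TMM normalization. With those tags left out *Fgfr2* stood at 0.50 in the null and 0.35 in the ventricles against the atria, and under TMM normalization as well at 1.09 and 0.097, with *Fgfrl1* at 0.098 and *Spry2* at 0.031 in the null. In the OFT against the AVC *Fgfr1* stood at -0.014 with more than 10 tags per tag type, and *Fgfr3* at -0.30 with the 3′-most sites alone, -0.026 with thinned libraries and -0.0020 with totals of tags assigned to 1 gene. Beyond what each alternative leaves out by its construction, the cause was not tested. Treating atria and ventricles as separate libraries, leaving out tags starting with T together with TMM normalization, and counting 1-base neighbours were chosen after seeing the data. A tag type under 6 tags is not listed, which limits every gene with few tags.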

Other observations

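The other marker lists are summed in TPM in the order AVC, OFT, atria, ventricles and null. Of all genes, 43.4% were called higher and 8.12% lower in the AVC than in the chambers (25.7% and 17.5% under TMM normalization), and 40.6% and 8.88% in the OFT (26.2% and 17.7%). Of the 10 cardiomyocyte markers 7 were called higher and 1 lower in the AVC, and 5 and 2 under TMM normalization. Endocardial and endothelial markers (8 genes) came to 501, 539, 316, 386 and 533, with 3 called higher and 1 lower in the AVC, and 2 and 2 under TMM normalization. Epicardium markers (6 genes) came to 270, 89.8, 309, 262 and 176, with 3 called lower and 1 higher in the OFT than in the chambers, and 5 and 1 under TMM normalization. Second heart field markers (7 genes, 6 of them listed) came to 426, 741, 65.6, 99.0 and 238, with all 4 genes tested called higher in the OFT than in the chambers, and 3 under TMM normalization. Neural crest markers (7 genes, 5 of them listed) came to 129, 170, 209, 159 and 118.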
